A study of Mus musculus with 24 samples.

Results

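The 34 genes described here encode the enzymes and transporters of glycolysis, the regulators of the hypoxia-inducible factor HIF, and genes known to be induced when oxygen is low. They were chosen as a named list with earlier results of these data known, so comparisons with all genes are descriptive. All 34 were found among the 41388 genes of the count table. Glycolysis splits glucose into pyruvate in the cytosol, and lactate dehydrogenase and the lactate exporters carry the excess away. When oxygen falls, prolyl hydroxylases stop marking HIF-1 alpha for destruction, and the stabilised factor raises most glycolytic genes, the angiogenic factor Vegfa and the hydroxylase Egln3 itself. In macrophages the same programme is also known to be raised by inflammatory activation at normal oxygen.

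RNA was sequenced from macrophages sorted by flow cytometry from dura mater, the tough sheath that lines the skull, and from diaphragm, the muscle of breathing. All mice were C57BL/6, wild type, aged 17 weeks and kept at steady state, in dura and diaphragm alike. RAG-1 deficient mice given T cells appear in the title of the series, but the labels of these samples do not name them. The labels divide the 24 samples into 3 macrophage subsets in each tissue, with sort markers that the sources used here do not give. Names of the count columns give the tissue but no subset. The 9 dural columns carry a mark (P6, P5 or P4) and a number (1, 3 or 4), and the 15 diaphragm columns a number alone. Values are therefore given for dura P6, P5 and P4 and for diaphragm numbers 3/6/9, 2/8 and 1/7, in the order of the numbers 1, 3 and 4 for dura and 3, 9 and 6, 2 and 8, and 1 and 7 for diaphragm, and nothing says which subset any of these is.

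A prefix was added to the names of 6 diaphragm columns, which differed from the column of the same number by little more than sampling noise (chi-square over degrees of freedom 1.008 to 1.169, against 10.559 to 263.275 between other columns of a tissue). Those pairs were summed and counted as 1 library each. Diaphragm numbers 5 and 4, with 1496 and 2115 counts, were left out. The 9 dural libraries held between 10457920 and 24077834 counts, and the 7 diaphragm libraries between 11053351 and 30132295. The 10 macrophage markers summed to between 30863 and 36631 CPM in dura and between 28243 and 38018 CPM in diaphragm, so both tissues showed the labelled cell type. CPM stands for counts per 1000000 after scaling each library with TMM factors.

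Glycolytic and hypoxia genes were mostly lower in dura than in diaphragm. All 34 passed the filter on low counts, and 19 of them fell in dura (edgeR quasi-likelihood test, Benjamini-Hochberg adjusted p under 0.05), against 15.3% of the 13136 genes tested. The genes that fell include the lactate exporter Slc16a3, the glucose transporter Slc2a1, the hexokinase Hk2, the lactate dehydrogenase Ldha and the angiogenic factor Vegfa. In the other direction, 2 rose in dura, Pfkfb4 and Pdk1, against 11.2% of all genes. The remaining 13 did not pass the threshold. The median log2 fold change, dura minus diaphragm, was -0.46 over the 34 genes and -0.01 over all genes tested. In either direction 26.4% of all genes were called, 1465 higher and 2007 lower in dura, a split that became 2350 higher and 1501 lower when libraries were scaled by their totals alone, which moved the median of all genes to 0.12. With totals alone 16 of the 34 were still lower and 2 higher in dura.

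For 5 genes every dural library lay below every diaphragm library, namely Hk2, Pfkfb3, Ldha, Slc16a3 and P4ha1, while 4.42% of all genes did so. Pfkfb4 alone lay above in every dural library, as did 2.47% of all genes. Summed over the 34 genes, the level was between 2452 and 2956 CPM in dura (median 2595). In diaphragm it was between 3023 and 4465 CPM (median 3678). With TMM scaling the sums did not overlap, by a narrow margin (2956 against 3023 CPM), and sums under other scalings were not taken. These were bulk libraries, in which fewer cells of a type and less RNA per cell cannot be told apart. Nothing in the labels says that libraries with the same dural number came from different mice, so the p-values measure the spread between libraries.

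Muscle transcripts moved with the tissue. The 14 skeletal muscle markers summed to between 15.8 and 27.3 CPM in dura and between 153 and 365 CPM in diaphragm. Mb, the oxygen store of muscle, was at 0 in all 9 dural libraries and between 16.1 and 50.01 CPM in diaphragm. Ckm, the muscle creatine kinase, was at 0 in 6 dural libraries and at 0.0869 CPM at most in the other 3, against 11.1 to 30.2 CPM in diaphragm. Of the 11 muscle markers tested, 10 fell in dura, as did 3 of 6 endothelial, 2 of 8 fibroblast, 3 of 6 classical monocyte and 2 of 7 dendritic cell markers and the only T and B cell marker tested. In the other direction, 3 of 5 erythroid markers rose, with sums between 1.01 and 112 CPM in dura and between 0.300 and 25.1 CPM in diaphragm, as did 4 of 10 macrophage markers, of which none fell. The part of these cell types in the differences below was not tested.

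**Figure D1:**
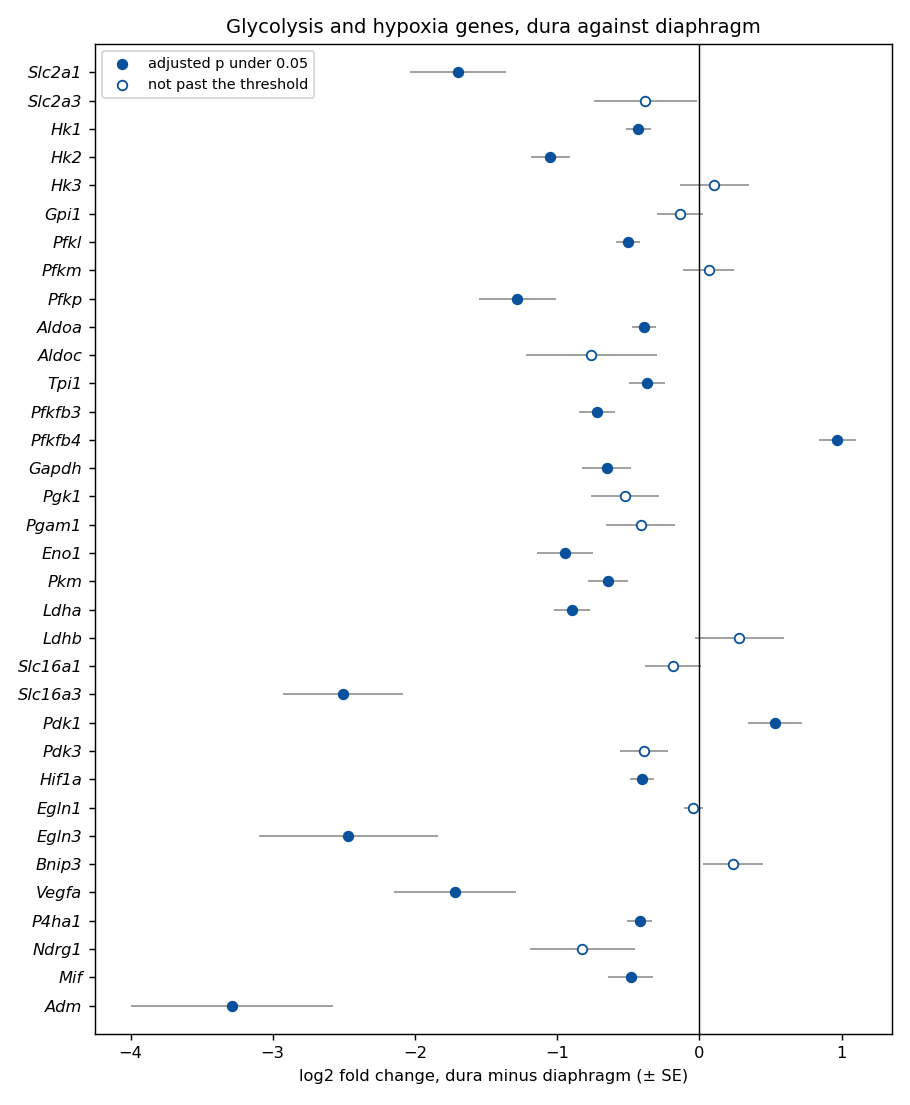
Log2 fold change of each of the 34 genes, dura minus diaphragm (horizontal axis), with its standard error; genes run from glucose transport at the top to hypoxia targets at the bottom. Filled points passed an adjusted p of 0.05, and 19 of these lie left of 0, with Pfkfb4 and Pdk1 right of it.

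Promoter sequence of the genes that were both lower in dura and higher in dura P6 than in dura P4 is shown because several hold the core of the element to which HIF is known to bind. The windows are 300 bases long, from 250 before to 50 after the start given by RefSeq on GRCm38.p6, written 5′ to 3′ along the gene, with capitals on every ACGTG or GCGTG and on their reverse complements CACGT and CACGC.
Ldha chr7:46845554-46845853 (+ strand): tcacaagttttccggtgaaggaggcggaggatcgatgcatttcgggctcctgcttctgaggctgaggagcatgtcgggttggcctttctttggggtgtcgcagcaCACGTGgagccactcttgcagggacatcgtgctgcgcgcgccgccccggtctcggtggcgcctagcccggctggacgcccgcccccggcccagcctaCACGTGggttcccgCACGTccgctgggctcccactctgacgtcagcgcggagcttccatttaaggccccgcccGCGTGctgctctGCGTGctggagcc
Slc16a3 chr11:120948817-120949116 (+ strand): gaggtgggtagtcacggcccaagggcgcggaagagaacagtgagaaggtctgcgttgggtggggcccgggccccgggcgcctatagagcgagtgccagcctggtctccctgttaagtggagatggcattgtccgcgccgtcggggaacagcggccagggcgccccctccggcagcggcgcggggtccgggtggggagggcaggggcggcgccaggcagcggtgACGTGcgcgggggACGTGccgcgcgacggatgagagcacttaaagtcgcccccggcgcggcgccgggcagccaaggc
Pfkp chr13:6648722-6649021 (- strand): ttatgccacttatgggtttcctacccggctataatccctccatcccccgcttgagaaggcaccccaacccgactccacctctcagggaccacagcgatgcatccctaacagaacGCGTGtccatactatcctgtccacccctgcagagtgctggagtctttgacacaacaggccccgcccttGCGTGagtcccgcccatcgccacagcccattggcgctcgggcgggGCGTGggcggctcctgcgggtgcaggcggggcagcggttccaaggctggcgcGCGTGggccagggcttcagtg
Eno1 chr4:150236458-150236757 (+ strand): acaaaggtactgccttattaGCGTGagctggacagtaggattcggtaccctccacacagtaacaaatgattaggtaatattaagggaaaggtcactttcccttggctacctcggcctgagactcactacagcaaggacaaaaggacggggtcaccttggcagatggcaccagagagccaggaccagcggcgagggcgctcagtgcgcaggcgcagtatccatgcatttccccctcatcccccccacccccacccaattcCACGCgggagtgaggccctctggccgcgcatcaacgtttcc
Pkm chr9:59656326-59656625 (+ strand): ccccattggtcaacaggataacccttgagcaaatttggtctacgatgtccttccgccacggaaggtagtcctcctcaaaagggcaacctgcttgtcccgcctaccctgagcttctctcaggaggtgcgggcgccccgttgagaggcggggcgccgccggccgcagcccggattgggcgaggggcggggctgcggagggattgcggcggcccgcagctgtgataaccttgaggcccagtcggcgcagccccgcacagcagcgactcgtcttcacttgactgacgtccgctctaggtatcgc
The Ldha window held 7 matches, 2 pairs of which overlap in the palindrome CACGTG. There were 4 matches in the Pfkp window, 2 in each of Slc16a3 and Eno1, and none in that of Pkm. Of the other genes with this pattern, Gapdh had 3 matches and Tpi1 none. A window was found for 32 of the 34 genes, and 26 of them (81.2%) held at least 1 match, against 43.8% of the windows of 27025 genes. At least 2 matches stood in 19 of the 32 (59.4%) and in 20.8% of all genes. Base composition was not matched between these windows, and a match is only a run of letters. The list was made of genes many of which HIF is known to raise, so a higher share may follow from that choice. The 27025 genes were not limited to those expressed in these libraries.

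Among the glucose transporters, Slc2a1 encodes GLUT1, the basal importer, and Slc2a3 the high-affinity GLUT3. Slc2a1 had 38.3, 50.8 and 37.4 CPM in dura P6, 31.9, 40.9 and 19.5 CPM in P5, and 20.7, 34.3 and 25.8 CPM in P4. In diaphragm it had 170.1, 176 and 192 CPM in numbers 3/6/9, 78.0 and 57.9 CPM in 2/8, and 45.1 and 37.2 CPM in 1/7. The 3/6/9 libraries stood far above the others, and the 1/7 libraries overlapped with dura P6. Slc2a1 fell 3.25-fold in dura (log2 fold change -1.70 ± 0.34 SE, edgeR adjusted p = 0.00141). Without diaphragm 3/6/9 the call was lost (log2 fold change -0.68, adjusted p = 0.0641). Slc2a3 ranged from 8.87 to 21.4 CPM in dura and from 5.43 to 38.2 CPM in diaphragm. Its log2 fold change of -0.38 did not pass (edgeR adjusted p = 0.469), and it was 0.71 without diaphragm 3/6/9.

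Hexokinases trap glucose in the cell as glucose 6-phosphate. Hk2, the inducible isozyme on the mitochondrial surface, had 105, 115 and 119 CPM in dura P6, 111, 123 and 115 CPM in P5, and 101, 105 and 102 CPM in P4. Diaphragm libraries had 289, 274 and 298 CPM in 3/6/9, 227 and 215 CPM in 2/8, and 157 and 139.9 CPM in 1/7. Levels in dura were nearly the same under all 3 marks, while those in diaphragm spread widely and lay above all of them. Hk2 fell 2.07-fold in dura (log2 fold change -1.05 ± 0.14 SE, edgeR adjusted p = 3.67e-05). Hk1, the constitutive isozyme, fell less (log2 fold change -0.43 ± 0.09, edgeR adjusted p = 0.0016). Hk3, an isozyme of blood and myeloid cells, spanned 103 to 196 CPM in dura and 81.9 to 278 CPM in diaphragm, with no call (edgeR adjusted p = 0.79).

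In upper glycolysis, phosphofructokinase makes the committed step. Its 3 subunit genes did not move alike. Pfkp, the platelet-type subunit, had 57.0, 54.8 and 52.1 CPM in dura P6, 31.7, 32.5 and 32.2 CPM in P5, and 26.8, 26.8 and 22.9 CPM in P4. In diaphragm it had 152, 117 and 137 CPM in 3/6/9, 58.4 and 60.9 CPM in 2/8, and 52.3 and 58.3 CPM in 1/7. Dura P6 overlapped with diaphragm 1/7, and all other dural libraries lay lower. Pfkp fell 2.43-fold in dura (log2 fold change -1.28 ± 0.27 SE, edgeR adjusted p = 0.0022), which without diaphragm 3/6/9 became -0.59 with an adjusted p of 0.0911. Pfkl, the liver-type subunit, had 62.7, 60.1 and 57.7 CPM in dura P6, 59.1, 57.9 and 59.8 CPM in P5, and 61.5, 70.4 and 65.1 CPM in P4. Its diaphragm values were 85.5, 97.4 and 91.4 CPM in 3/6/9, 69.8 and 81.8 CPM in 2/8, and 76.0 and 107 CPM in 1/7. The groups overlapped by 1 dural library only, and Pfkl fell 1.41-fold (log2 fold change -0.50 ± 0.08 SE, edgeR adjusted p = 0.00035).

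Pfkm, the muscle-type subunit, ranged from 12.8 to 26.3 CPM in dura and from 12.5 to 26.2 CPM in diaphragm, with a log2 fold change of 0.07 and an edgeR adjusted p of 0.827. Aldoa, the main aldolase of muscle and most other tissues, fell (log2 fold change -0.39 ± 0.09, edgeR adjusted p = 0.00295), and triose-phosphate isomerase Tpi1 with -0.37 ± 0.13 (0.0422). For Aldoa the call ended without diaphragm 3/6/9, at -0.28 and an adjusted p of 0.0597. For Tpi1 leaving out any of 12 single libraries ended the call, with log2 fold changes between -0.38 and -0.28. It also ended with library totals, upper-quartile factors, a random term for the dural number or no filter, and without dura P5, dura P4 or diaphragm 2/8, at -0.38 to -0.22 (adjusted p 0.061 to 0.218). Gpi1, which makes fructose 6-phosphate, and the brain-type aldolase Aldoc did not pass (edgeR adjusted p = 0.564 and 0.239).

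The bifunctional PFK-2 enzymes set the level of fructose 2,6-bisphosphate, the strongest activator of phosphofructokinase, and the pair went opposite ways. Pfkfb4 had 118, 117 and 122 CPM in dura P6, 90.6, 91.7 and 104 CPM in P5, and 78.8, 81.3 and 73.5 CPM in P4. Diaphragm libraries had 47.0, 51.2 and 65.7 CPM in 3/6/9, 45.3 and 52.8 CPM in 2/8, and 37.3 and 49.3 CPM in 1/7. Every dural library was above every diaphragm library, and Pfkfb4 rose 1.96-fold (log2 fold change 0.97 ± 0.13 SE, edgeR adjusted p = 4.82e-05). Pfkfb3, the isozyme with the highest kinase activity, had 76.2, 134 and 104 CPM in dura P6, 106, 143 and 148 CPM in P5, and 107, 122 and 114 CPM in P4. Against these stood 167, 169 and 198 CPM in diaphragm 3/6/9, 231 and 225 CPM in 2/8, and 205 and 158 CPM in 1/7. Again the tissues did not overlap, but here dura was the lower, by 1.65-fold (log2 fold change -0.72 ± 0.13 SE, edgeR adjusted p = 0.000517).

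Lower glycolysis turns triose phosphate into pyruvate. Gapdh, its dehydrogenase, had 33.4, 38.4 and 35.1 CPM in dura P6, 21.7, 19.8 and 21.7 CPM in P5, and 16.3, 22.2 and 19.5 CPM in P4. Diaphragm had 41.5, 45.5 and 46.2 CPM in 3/6/9, 37.4 and 40.8 CPM in 2/8, and 33.0 and 34.5 CPM in 1/7. Dura P6 reached into the range of diaphragm, and P5 and P4 lay below it. Gapdh fell 1.57-fold in dura (log2 fold change -0.65 ± 0.17 SE, edgeR adjusted p = 0.00943), and the call was lost without diaphragm 3/6/9 (-0.49, adjusted p = 0.125), without dura P5 (-0.53, 0.0817) or without dura P4 (-0.49, 0.0559).

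Eno1, the ubiquitous enolase, had 133, 117 and 117 CPM in dura P6, 75.1, 72.1 and 68.0 CPM in P5, and 73.6, 66.4 and 63.3 CPM in P4. In diaphragm the values were 235, 203 and 202 CPM in 3/6/9, 141 and 157 CPM in 2/8, and 119 in both libraries of 1/7. The highest dural library passed the lowest of diaphragm, and Eno1 fell 1.93-fold (log2 fold change -0.95 ± 0.19 SE, edgeR adjusted p = 0.00176). Without diaphragm 3/6/9 it was -0.59 with an adjusted p of 0.0567. Pyruvate kinase Pkm ranged from 257 to 402 CPM in dura (median 281) and from 356 to 600.1 CPM in diaphragm (median 433). It fell 1.56-fold (log2 fold change -0.64 ± 0.14 SE, edgeR adjusted p = 0.00273), or -0.34 with an adjusted p of 0.0967 without diaphragm 3/6/9. Phosphoglycerate kinase Pgk1 and the mutase Pgam1 did not pass (edgeR adjusted p = 0.119 and 0.228). Pgk1 had 13.8, 10.5 and 11.2 CPM in dura P6, 8.89, 8.32 and 5.75 CPM in P5, and 5.74, 5.77 and 6.60 CPM in P4. Its diaphragm values were 10.2, 18.3 and 13.6 CPM in 3/6/9, 13.3 and 15.3 CPM in 2/8, and 7.29 and 7.61 CPM in 1/7, so that the tissues overlapped over most of their range.

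The lactate step held the largest fall among the glycolytic genes. Slc16a3 encodes MCT4, the low-affinity exporter of cells with high glycolysis, and lies on the plus strand of chromosome 11 at 120948480 to 120960868 (GRCm38). It had 24.7, 25.7 and 22.2 CPM in dura P6, 9.23, 7.93 and 5.87 CPM in P5, and 10.95, 6.33 and 4.99 CPM in P4. In diaphragm it had 102, 133 and 121 CPM in 3/6/9, 35.9 and 39.7 CPM in 2/8, and 41.5 and 46.8 CPM in 1/7. Both tissues had a set well above the rest, and even dura P6 stayed below every diaphragm library. Slc16a3 fell 5.68-fold in dura (log2 fold change -2.51 ± 0.42 SE, edgeR adjusted p = 0.000373).

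Ldha, the subunit that favours lactate formation, had 271, 263 and 253 CPM in dura P6, 193, 182 and 164 CPM in P5, and 175, 183 and 171 CPM in P4. The diaphragm libraries had 449, 400.2 and 422 CPM in 3/6/9, 395 and 386 CPM in 2/8, and 319 and 311 CPM in 1/7. All dural libraries were lower, and Ldha fell 1.86-fold (log2 fold change -0.89 ± 0.13 SE, edgeR adjusted p = 7.61e-05). Neither Ldhb, the subunit that favours pyruvate, nor Slc16a1, which encodes the carrier MCT1, passed the threshold (edgeR adjusted p = 0.545 and 0.527). Slc16a1 spanned 26.4 to 62.8 CPM in dura and 27.2 to 59.2 CPM in diaphragm, nearly the same range.

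Pyruvate dehydrogenase kinases close the entry of pyruvate into mitochondria. Pdk1 had 32.9, 23.7 and 29.1 CPM in dura P6, 24.5, 25.6 and 30.8 CPM in P5, and 36.8, 34.1 and 38.2 CPM in P4. Diaphragm had 16.5, 19.9 and 9.87 CPM in 3/6/9, 32.0 and 20.7 CPM in 2/8, and 22.4 and 26.8 CPM in 1/7. The 3/6/9 libraries were the lowest, and the other diaphragm libraries lay within or just below the dural range. Pdk1 rose 1.44-fold in dura (log2 fold change 0.53 ± 0.19 SE, edgeR adjusted p = 0.048), close to the threshold, and leaving out any of 11 single libraries ended the call, with log2 fold changes between 0.41 and 0.56. With a random term for the dural number, no filter, or without any of the dural marks it was 0.39 to 0.62 (adjusted p 0.0505 to 0.225). Pdk3 did not pass (log2 fold change -0.39, edgeR adjusted p = 0.0995).

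Of the HIF regulators, Hif1a encodes the oxygen-sensitive subunit, which is controlled mainly at the protein level. Hif1a had 99.1, 95.5 and 91.0 CPM in dura P6, 91.7, 92.9 and 103 CPM in P5, and 116, 92.1 and 96.8 CPM in P4. In diaphragm there were 124, 149 and 131 CPM in 3/6/9, 136 and 147 CPM in 2/8, and 121 and 95.2 CPM in 1/7. Diaphragm number 7 fell within the dural range, and the other 6 libraries lay above it. Hif1a fell 1.32-fold in dura (log2 fold change -0.40 ± 0.09 SE, edgeR adjusted p = 0.00239). Egln1, the main hydroxylase at normal oxygen, lay between 66.6 and 79.2 CPM in dura and between 64.8 and 85.9 CPM in diaphragm, and did not pass (log2 fold change -0.04 ± 0.07, edgeR adjusted p = 0.674).

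Egln3, the hydroxylase induced by HIF, was low in dura. It had 0.0839, 0.624 and 0.740 CPM in dura P6, 0.593, 0.555 and 0.653 CPM in P5, and 0.0869, 1.82 and 0.943 CPM in P4. Diaphragm had 2.995, 1.60 and 0.713 CPM in 3/6/9, 1.62 and 1.92 CPM in 2/8, and 12.8 and 4.95 CPM in 1/7. The 1/7 libraries were the highest, in contrast to most glycolytic genes. Egln3 fell 5.53-fold in dura (log2 fold change -2.47 ± 0.63 SE, edgeR adjusted p = 0.00786), and without diaphragm 1/7 the call was lost (-1.38, adjusted p = 0.0798), as it was without dura P5 (-2.38, adjusted p = 0.0597) and with a random term for the dural number (-2.34, adjusted p = 0.0523).

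Among the hypoxia targets, Adm, the vasodilator adrenomedullin, had the largest log2 fold change of the 34 genes. It had 0, 1.56 and 0 CPM in dura P6, where a count of 0 allows up to 3 counts in a library, 2.37, 1.03 and 0.857 CPM in P5, and 3.56, 4.01 and 1.28 CPM in P4. In diaphragm it had 12.9, 6.40 and 3.56 CPM in 3/6/9, 11.3 and 22.1 CPM in 2/8, and 26.7 and 28.3 CPM in 1/7. In both tissues the set that was highest in Slc16a3 had the lowest mean of Adm, with libraries that overlapped those of another set. Adm fell 9.75-fold in dura (log2 fold change -3.29 ± 0.71 SE, edgeR adjusted p = 0.00252). Vegfa, the vascular growth factor, had 22.9, 42.5 and 27.7 CPM in dura P6, 9.996, 28.6 and 10.97 CPM in P5, and 33.1, 20.01 and 8.93 CPM in P4. Its diaphragm values were 129, 119.8 and 137 CPM in 3/6/9, 48.6 and 43.6 CPM in 2/8, and 23.4 and 22.6 CPM in 1/7. The 1/7 libraries sat inside the dural range, and the rest above it. Vegfa fell 3.29-fold (log2 fold change -1.72 ± 0.43 SE, edgeR adjusted p = 0.00707), but without diaphragm 3/6/9 the log2 fold change was -0.57 with an adjusted p of 0.337.

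P4ha1, a collagen prolyl hydroxylase subunit, fell 1.34-fold in dura without overlap (log2 fold change -0.42 ± 0.09 SE, edgeR adjusted p = 0.00208), a call that ended with library totals (-0.28, adjusted p = 0.0623). Mif, a cytokine, fell (log2 fold change -0.48 ± 0.16, edgeR adjusted p = 0.0323), a call that 8 of the 16 libraries ended when left out singly, with values between -0.47 and -0.38. The other settings that ended the call of Tpi1 also ended that of Mif, at -0.50 to -0.33 (adjusted p 0.0599 to 0.178). Bnip3, which targets mitochondria for removal, and Ndrg1 did not pass (edgeR adjusted p = 0.433 and 0.108). Over all these tissue calls, summing the dural libraries into 1 per number left 3 dural libraries and 9 calls, 1 higher and 8 lower in dura, against 5.42% of all genes lower. The 12 calls that ended there were those of Slc2a1, Hk1, Pfkl, Pfkp, Aldoa, Tpi1, Pkm, Pdk1, Hif1a, Egln3, Vegfa and Mif, with adjusted p between 0.0523 and 0.284. Without diaphragm 3/6/9, 11 of the 34 were called, 1 higher, against 9.07% of all genes, and 10 lower, against 11.6%. Beside those given above, Tpi1, Pdk1 and Mif also lost their calls there.

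**Figure D2:**
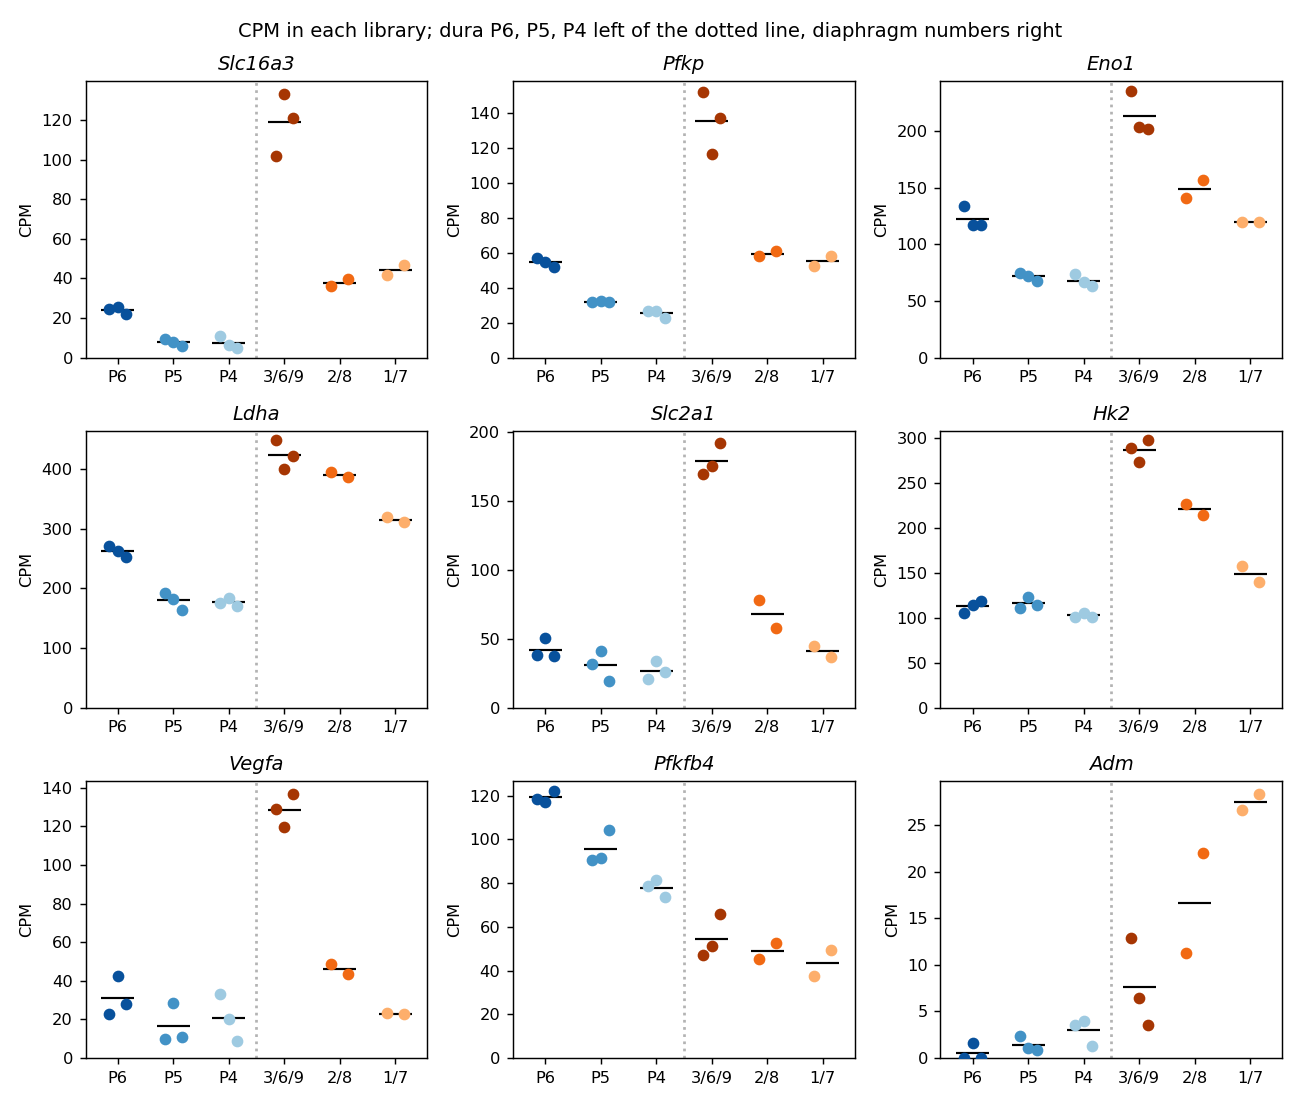
CPM (vertical axes, from 0) of 9 genes in each library, with dura P6, P5 and P4 left and diaphragm numbers 3/6/9, 2/8 and 1/7 right of the dotted line; bars are set means. Slc16a3, Ldha and Hk2 are lower in every dural library, and Pfkfb4 is higher in every one. Within each tissue the set mean of Adm is lowest where that of Slc16a3 is highest, though libraries of the sets overlap in Adm.

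Between the dural marks, the glycolytic genes that passed were mostly, but not all, higher in P6. Of the 33 genes tested, which leaves out Egln3, 11 rose in P6 against P4, where 16% of the 13239 genes tested rose, and 5 fell, where 17.3% did. No P6 library overlapped with a P4 library in 20 of the 33 genes, 13 higher and 7 lower in P6, and in 46.6% of all genes tested. The risers were Slc2a3, Gpi1, Pfkp, Tpi1, Pfkfb4, Gapdh, Pgk1, Eno1, Pkm, Ldha and Slc16a3. The genes that fell were Hk3, Pfkm, Slc16a1, P4ha1 and Ndrg1. In either direction 16 of 33 were called, against 33.3% of all genes, and the median log2 fold change was 0.14 over the 33 genes and -0.004 over all genes. Of lower glycolysis, 4 of 5 genes rose and none fell. Of upper glycolysis 3 of 7 rose and Pfkm fell, while of the 3 hexokinases none rose and Hk3 fell. Of the 6 hypoxia targets none rose, and P4ha1 and Ndrg1 fell.

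Slc16a3 showed the largest change among the genes that passed, with its values above: P6 was 3.31-fold higher than P4 (log2 fold change 1.73 ± 0.28 SE, edgeR adjusted p = 0.00048) and 3.18-fold higher than P5 (1.67 ± 0.28, adjusted p = 0.00141). P5 and P4 overlapped. Pfkp was 2.15-fold higher in P6 than in P4 (log2 fold change 1.11 ± 0.11 SE, edgeR adjusted p = 1.18e-05), and its marks did not overlap. Pgk1 rose by 0.97 ± 0.23 on the log2 scale (edgeR adjusted p = 0.00656), Gapdh by 0.89 ± 0.15 (0.000609) and Eno1 by 0.86 ± 0.10 (3.08e-05). For each of these 3 genes all P6 libraries lay above all other dural libraries. Gpi1, Ldha, Pfkfb4 and Pkm rose with log2 fold changes between 0.45 and 0.67. The rise of Tpi1 was 0.34 ± 0.12 with an edgeR adjusted p of 0.0472, and 7 of the 9 single libraries ended that call when left out, with values between 0.25 and 0.39, as did RLE factors (0.34, adjusted p = 0.0549) and library totals (0.21, adjusted p = 0.218). For Slc2a3 (0.79 ± 0.22, edgeR adjusted p = 0.0144) leaving out dura 3P6 or 4P6 ended the call, at 0.73 and 0.72.

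Ndrg1, a gene of stress and differentiation, had 25.1, 29.0 and 21.6 CPM in dura P6, 30.2, 25.5 and 15.01 CPM in P5, and 47.4, 57.8 and 35.0 CPM in P4. Diaphragm libraries had 71.5, 53.1 and 80.9 CPM in 3/6/9, 13.7 and 16.05 CPM in 2/8, and 94.5 and 65.0 CPM in 1/7. P4 was the highest of the dural marks, while in diaphragm 2/8 was far below both other sets. Ndrg1 fell in P6 against P4 (log2 fold change -0.88 ± 0.25 SE, edgeR adjusted p = 0.0155), a call lost without dura 3P4 (-0.70) or 4P6 (-0.78). Slc16a1 fell too (-0.82 ± 0.17, edgeR adjusted p = 0.00283), opposite to Slc16a3, as did Pfkm (-0.73 ± 0.16, adjusted p = 0.00379), opposite to Pfkp, and Hk3 (-0.60 ± 0.13, adjusted p = 0.00436). Hk2, Hif1a, Vegfa, Slc2a1 and Adm did not pass (edgeR adjusted p between 0.0708 and 0.574).

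Against P5, 9 of 33 genes rose in P6, where 8.38% of all genes rose, and 1 fell, where 8.98% did. Libraries of P6 and P5 did not overlap in 15 of the 33 genes, 12 higher and 3 lower in P6, and in 36% of all genes tested. The 9 were among the 11 above, without Slc2a3 and Pgk1, and the gene that fell was Hk3 (log2 fold change -0.61 ± 0.13 SE, edgeR adjusted p = 0.00832). Of these, Pfkfb4 lost its call without 1P5, 3P5, 1P6, 3P6 or 4P6, with log2 fold changes between 0.28 and 0.34, and with no filter on low counts (0.30, adjusted p = 0.0879), and Tpi1 without 3P5, 4P5 or 1P6, between 0.39 and 0.43. P6 against P4 and P6 against P5 share the P6 libraries. Between P5 and P4 none rose, where 3.09% of all genes rose, and 2 fell, where 4.26% did, namely Slc16a1 (-0.72 ± 0.17, edgeR adjusted p = 0.0223) and Ndrg1 (-0.99 ± 0.25, adjusted p = 0.0302). That is 6.06% of 33, near the 7.35% of all genes called in either direction, and without dura 3P4, 3P5 or 4P5 neither was called. With DESeq2 2 rose and 2 fell in P5, where 624 and 824 of the 13239 genes tested did. With limma-voom 1 rose and 2 fell, where 461 and 754 of the 13239 did. Libraries of P5 and P4 did not overlap in 12 of the 33 genes, 4 higher and 8 lower in P5, and in 25.9% of all genes tested. Leaving out 1P4 ended the call of Ndrg1, at -0.99 with an adjusted p of 0.079, and leaving out 1P5 that of Slc16a1, at -0.67 with 0.0811.

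Markers of other cells moved with the marks as well. Ccr2, the chemokine receptor of monocytes and their recent progeny, had 1642, 1460 and 1513 CPM in dura P6, 278, 275 and 248 CPM in P5, and 104, 47.9 and 33.3 CPM in P4. The 6 monocyte markers together summed to between 1488 and 1659 CPM in P6 and between 42.9 and 118 CPM in P4, and Ccr2 was the only one of them that passed. The 8 fibroblast markers went the other way, between 262 and 410 CPM in P6 and between 2224 and 4045 CPM in P4, and all 8 fell. Of 7 dendritic cell markers 5 rose and 2 fell, with sums of 113 to 143 CPM in P6 and 99.3 to 124 CPM in P4. Their part in the differences between marks was not tested.

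**Figure D3:**
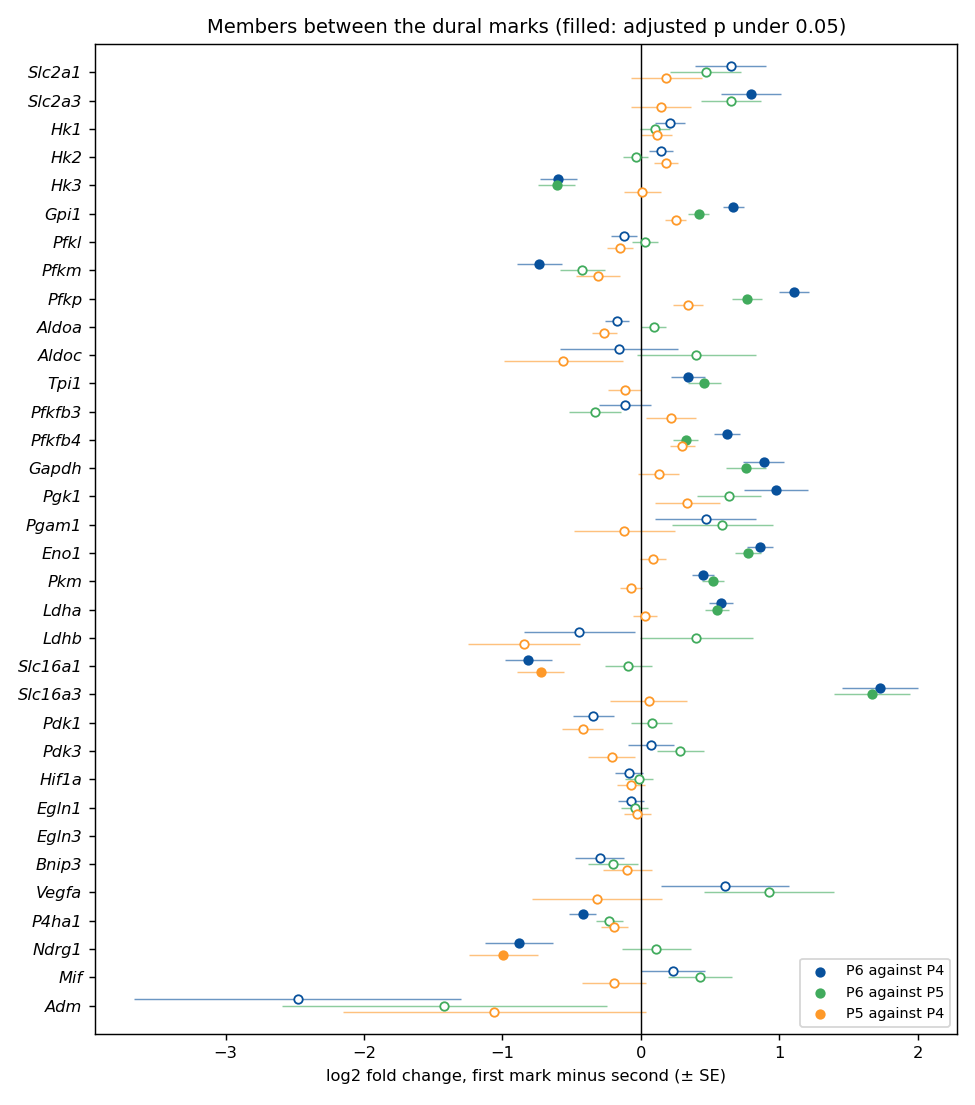
Log2 fold changes of the 34 genes between dural marks (horizontal axis, first mark minus second, with standard error), for P6 against P4, P6 against P5 and P5 against P4; filled points passed an adjusted p of 0.05 and Egln3 was not tested. Points of P6 against P4 and P6 against P5 run right of 0 for lower glycolysis, Ldha and Slc16a3, and left of 0 for Hk3 and Pfkm.

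The diaphragm sets are described without a test, since nothing says what they are. The 3 libraries of 3/6/9 lay above all 4 other diaphragm libraries in 16 of the 34 genes, among them Slc2a1, Slc2a3, Hk2, Gpi1, Pfkp, Gapdh, Eno1, Pkm, Ldha, Slc16a3 and Vegfa, as they did in 13.9% of the 13136 genes tested. They lay below all others in Hk3 and Pdk1, and in 13.5% of all genes. The 1/7 libraries lay below all others in 16 genes, where 14.2% of all genes did, and above them in Egln3 and Adm, where 17.3% did. Hk3, Pfkfb3 and P4ha1 lay above all others in 2/8, as did 8.98% of all genes. In dura, P6 lay above all other libraries in 11 genes, and in 14.4% of the 13239 genes tested there. Of these 11 genes Pfkfb4 and Pgk1 were not among the 16 of diaphragm 3/6/9. Slc2a1, Hk2 and Vegfa separated diaphragm 3/6/9 from the other diaphragm libraries but not dura P6 from the other dural ones.

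Ccr2 was highest in 3/6/9 too, at 807, 1035 and 1045 CPM, against 129 in both libraries of 2/8 and 19.7 and 23.7 CPM in 1/7. Flt3, a marker of dendritic cells, had between 30.1 and 51.1 CPM in 3/6/9, between 2.15 and 3.16 CPM in 2/8, and at most 1.05 CPM in 1/7. The 7 dendritic cell markers summed to 558 to 759 CPM in 3/6/9. In 2/8 their sums were 105 and 124 CPM, and in 1/7 83.0 and 107 CPM. Ccr7, another of them, had 243, 209 and 289 CPM in 3/6/9. It had 43.1 and 20.5 CPM in 2/8 and at most 4.32 CPM in 1/7. Fibroblast markers summed to 7656 and 15771 CPM in the 1/7 libraries, against 286 to 828 CPM in the other 5. Endothelial markers summed to 912 and 959 CPM in 1/7, 452 and 505 CPM in 2/8, and 25.6 to 125 CPM in 3/6/9. Muscle markers overlapped between the sets, with 227 to 365 CPM in 3/6/9, 153 and 255 CPM in 2/8, and 199 and 332 CPM in 1/7. How much these cells add to the order of the sets was not tested.

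Levels of different genes were compared per kilobase of exon. The length took in every annotated exon of a gene, which can exceed that of a single mRNA. Among the hexokinases, Hk3 was the most abundant in dura, at 41.6 ± 9.40 CPM per kb (SD, n = 9), followed by Hk2 at 18.5 ± 1.30 and Hk1 at 8.52 ± 0.850 CPM per kb. In diaphragm Hk3 and Hk2 overlapped, at 38.7 ± 20.1 and 38.3 ± 10.5 CPM per kb (SD, n = 7), and Hk1 was lower at 11.5 ± 1.48. Before division by length the diaphragm means were 142 CPM for Hk3 and 229 CPM for Hk2. The order changed with the set: in diaphragm 3/6/9 Hk2 stood at 48.1 ± 2.07 and Hk3 at 24.4 ± 1.86 CPM per kb (SD, n = 3), and in 2/8 Hk3 at 66.6 ± 12.5 and Hk2 at 37.0 ± 1.47 (SD, n = 2). In dura P6 Hk3 was at 30.9 ± 2.54 and Hk2 at 18.9 ± 1.19 CPM per kb (SD, n = 3).

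Of the phosphofructokinases, Pfkl led in dura at 9.23 ± 0.608 CPM per kb, before Pfkm at 6.04 ± 1.41 and Pfkp at 2.79 ± 0.995 (SD, n = 9). In diaphragm Pfkl was again first at 13.04 ± 1.92 CPM per kb, while Pfkp at 6.78 ± 3.21 and Pfkm at 5.77 ± 1.48 overlapped (SD, n = 7). The order of that pair changed with the set: Pfkp stood at 10.1 ± 1.33 and Pfkm at 5.19 ± 1.51 CPM per kb in diaphragm 3/6/9 (SD, n = 3), and Pfkm at 7.03 ± 1.16 and Pfkp at 4.13 ± 0.316 in 1/7 (SD, n = 2). In 2/8 they overlapped, as they did in dura P6, where Pfkm was at 4.53 ± 0.716 and Pfkp at 4.08 ± 0.186 CPM per kb (SD, n = 3). These orders depend on the length used, which was 13.401 kb for Pfkp, 6.675 kb for Pfkl and 3.34 kb for Pfkm. Before division by length, Pfkp averaged 37.4 CPM and Pfkm 20.2 CPM in dura. In diaphragm Pfkp averaged 90.9 CPM and Pfkl 87.0 CPM. Ldha exceeded Ldhb in both tissues, at 62.3 ± 13.1 against 6.66 ± 3.01 CPM per kb in dura and 116 ± 15.4 against 5.47 ± 2.43 CPM per kb in diaphragm. Of the lactate carriers, Slc16a1 stood at 7.87 ± 2.70 and Slc16a3 at 2.46 ± 1.61 CPM per kb in dura. In diaphragm Slc16a3 was at 13.97 ± 8.03 and Slc16a1 at 8.95 ± 2.36 CPM per kb, ranges that overlap. Slc16a3 was clearly the higher in 3/6/9 alone, at 22.3 ± 2.97 against 9.14 ± 1.27 CPM per kb for Slc16a1 (SD, n = 3). The pair overlapped in 2/8, at 7.11 ± 0.501 for Slc16a3 and 6.85 ± 1.01 for Slc16a1, and in 1/7, at 8.30 ± 0.705 and 10.8 ± 3.69 CPM per kb (SD, n = 2 each).

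**Figure D4:**
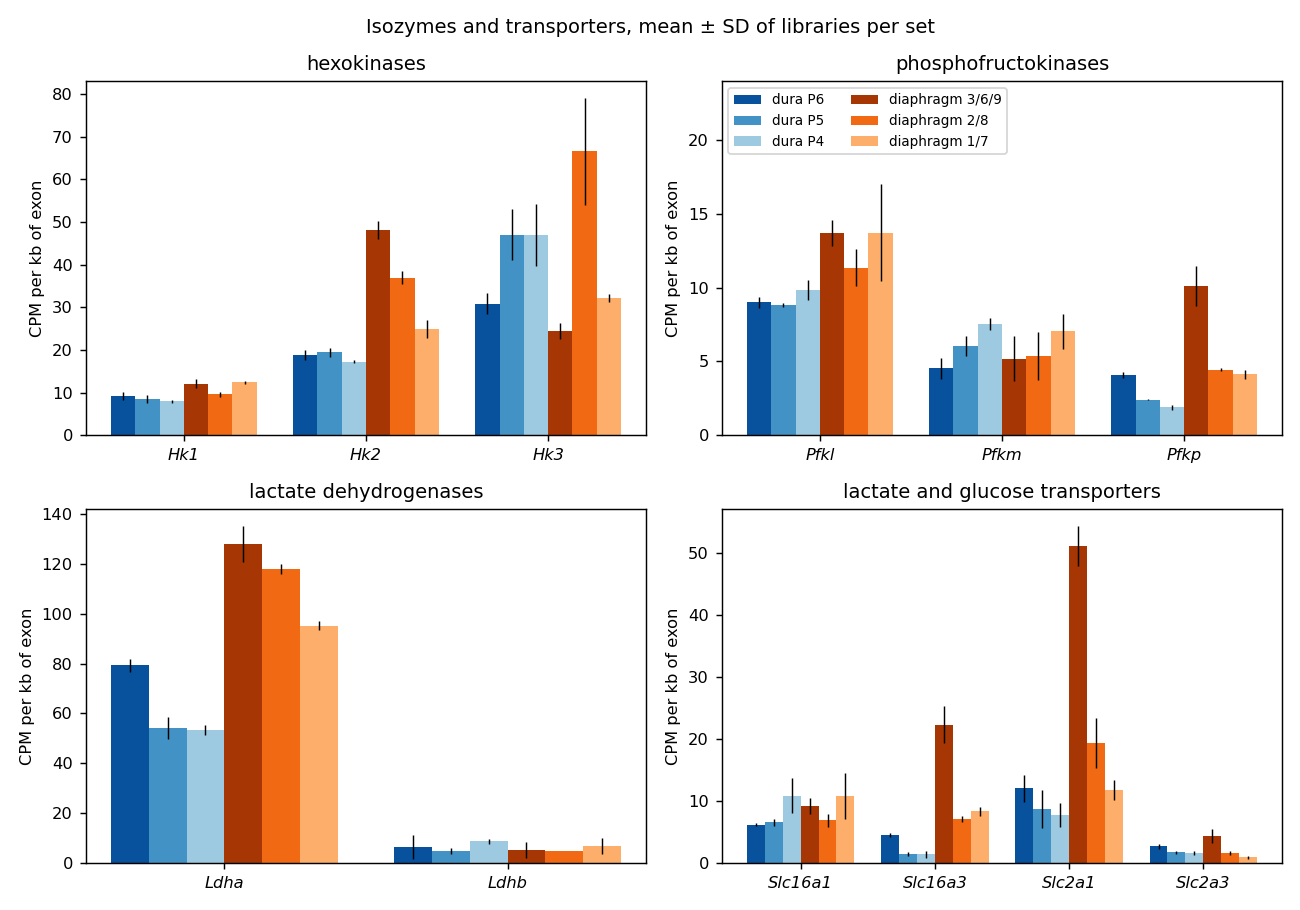
Mean CPM per kilobase of exon (vertical axes, from 0) of isozymes and transporters in dura P6, P5 and P4 and diaphragm 3/6/9, 2/8 and 1/7; error bars are SD over 3 libraries, or 2 for diaphragm 2/8 and 1/7. Hk3 exceeds Hk2 in every dural set and falls below it in diaphragm 3/6/9, and Ldha exceeds Ldhb throughout.

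Several of these genes have copies elsewhere in the genome, which may bear on their level. Cut into windows of 75 bases, the read length, 22.6% of Gapdh exon sequence recurs exactly in 121 other genes of the annotation, 114 of them pseudogenes. Those copies held 14709 counts over the 16 libraries, against 9259 for Gapdh itself. Shared windows made up 52.8% of Pgk1, 38.3% of Mif, 34.9% of Pgam1, 23.1% of Bnip3 and 23.0% of Eno1, where the copies held 134 counts or fewer. For Ldha 2.7% was shared, and its copies held 12122 counts against 84255. For Slc2a3 only 0.5% was shared, but the 8 other genes that hold those windows had 89335 counts against 4517. These are the full counts of the other genes, not counts from the shared windows, and only exact matches were sought. How far the counts of the 34 genes are uncertain was therefore not measured. The kit did not mark strand, and 9 of the 34 genes share exon sequence with an overlapping gene, most in Bnip3 (12.9% of windows), Pkm (10.6%) and Pfkm (8.1%).

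**Figure D5:**
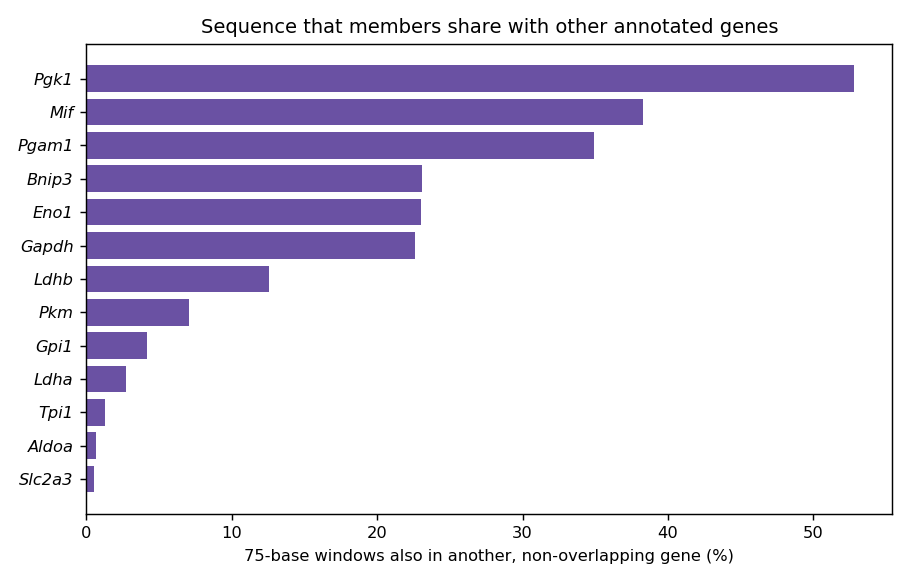
Share of 75-base windows (horizontal axis, percent) of each gene that occur exactly in a gene elsewhere in the annotation; the 13 genes with any such window are shown. Pgk1 is first at 52.8%, followed by Mif and Pgam1.

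Other genes of the pathway were counted from lists that hold none of the 34, and are read against the 15.3% of all genes that fell and the 11.2% that rose in dura. Of 19 further hypoxia-induced genes tested, 7 (36.8%) fell in dura and 1 (5.26%) rose. Hmox1, the heme oxygenase, fell (log2 fold change -1.75 ± 0.22, edgeR adjusted p = 2.76e-05), and Bhlhe40, a repressor of the clock family, with -3.14 ± 0.42 (adjusted p = 4.58e-05). Bhlhe40 stood between 16.5 and 85.8 CPM in dura and between 149 and 563 CPM in diaphragm, with no overlap. Bnip3l, a relative of Bnip3, rose with a log2 fold change of 0.39 ± 0.08 (adjusted p = 0.00177). Of 10 further HIF regulators Siah2, a ubiquitin ligase, fell (-0.59 ± 0.17, adjusted p = 0.0168) and Arnt2, a partner of HIF proteins, rose (3.64 ± 1.08, adjusted p = 0.0191), with at most 12.98 CPM in dura and 1.55 CPM in diaphragm.

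In the pentose phosphate pathway, which branches off glucose 6-phosphate to make NADPH and ribose, 1 of 8 genes (12.5%) fell in dura and none rose. That gene was Taldo1, the transaldolase (log2 fold change -0.75 ± 0.12 SE, edgeR adjusted p = 0.000172). Between P6 and P4 3 of the 8 (37.5%) rose, where 16% of all genes did, namely the transketolase Tkt (1.17 ± 0.09, adjusted p = 1.4e-06), Pgd (0.71 ± 0.08, adjusted p = 3.55e-05) and Taldo1 (0.39 ± 0.10, adjusted p = 0.00964), and 1 fell, where 17.3% of all genes did. Of 11 genes of pyruvate entry into mitochondria, 2 fell and 1 rose in dura, and 3 rose and none fell in P6 against P4. That is 27.3% called in each comparison, near the 26.4% of all genes called between tissues and below the 33.3% called between P6 and P4. Glycogen and gluconeogenesis genes gave 5 lower (45.5%) and 2 higher (18.2%) of 11 in dura, with Pygl, the liver-type phosphorylase, at -1.44 ± 0.24 (adjusted p = 0.00032) and Pck2, the mitochondrial carboxykinase, at 0.63 ± 0.11 (adjusted p = 0.000412).

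Among isozymes typical of other tissues, the muscle enolase Eno3 fell in dura (log2 fold change -1.09 ± 0.19 SE, edgeR adjusted p = 0.000476), as did the muscle mutase Pgam2 (-2.38 ± 0.47, adjusted p = 0.00128). Bpgm, the bisphosphoglycerate mutase of red blood cells, rose (0.70 ± 0.18, adjusted p = 0.00871), and Pfkfb2, Eno2 and Slc2a4 did not pass. Eno3 and Pgam2 also stand among the muscle markers given above. Of 20 hypoxia-induced genes tested between P6 and P4, 9 (45%) fell, against 17.3% of all genes, and 2 (10%) rose, against 16%. Bhlhe40 rose (1.81 ± 0.19, adjusted p = 1.94e-05). Plod2, Lox and P4ha2, named after their values were seen, act in collagen maturation and fell by 3.57, 2.77 and 2.98 on the log2 scale. The fibroblast markers all fell as well, and a link with them was not tested. Epas1, the HIF-2 alpha subunit, was also named afterwards and fell by 1.39 ± 0.26 on that scale (edgeR adjusted p = 0.00122). Of the 10 further HIF regulators, 2 (20%) rose in P6 against P4, where 16% of all genes did. Another 3 (30%) fell, where 17.3% of all genes did.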

How the data were processed

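Single-end reads of 75 bases from unstranded libraries of sorted macrophages were mapped with STAR 2.4.0j to GRCm38 and counted with featureCounts, and DESeq2 1.20.0 is also named, per the submitters' processing notes. The table the authors deposited gives raw counts for each gene, as whole numbers with totals that differ between columns. Its file name calls the values normalised, and they were read as counts. Of its 24 columns, 6 repeat columns were summed with their partners, and 2 with totals under 10000 were left out. Columns were assigned to a tissue, not to a labelled subset.

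Counts were scaled with TMM, filtered with filterByExpr and tested with the edgeR 4.0.16 quasi-likelihood test in its legacy setting (R 4.3.3), with Benjamini-Hochberg adjustment over all genes tested. Dural marks were compared in a fit of the 9 dural libraries. Alternatives used limma 3.58.1 and DESeq2 1.42.0, other scalings and filters, and left-out libraries. The fits were tested on simulated data. Those libraries were drawn independently, without shared numbers and, in the tissue fit, without sets within a tissue. Such structure was therefore not covered. Values per library were given for the 8 largest tissue fold changes, the 6 largest between marks, and a set of central genes. Genes outside the 34 were named by smallest tissue adjusted p, up to 4 a list, unless said otherwise. The members and lists were chosen with earlier results of these data known. Promoter windows are from RefSeq. A gene of the list of isozymes of other tissues is not reported here.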

Additional observations from a re-analysis of the deposited data

Results flagged for a closer look

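In 4 of 68 tests of the genes within a tissue, a library stood apart from the others of its tissue by Dixon's test. Its nominal rate of about 1 in 20 holds for libraries drawn from 1 normal population. The tests pooled marks or number sets that differ, so 4 of 68 cannot be read against that rate. Slc16a1 had 62.8 CPM in dura 3P4, while the other dural libraries had 26.4 to 42.7 CPM. Pdk3 had 31.2 CPM in dura 1P6, against 19.1 to 24.1 CPM in the others. Egln3 had 1.82 CPM in dura 3P4, against 0.0839 to 0.943 CPM in the other dural libraries, and 12.8 CPM in diaphragm 1, against 0.713 to 4.95 CPM in the other diaphragm libraries.

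The 2 columns left out for their low totals held some counts of these genes. Diaphragm 5 had 4 counts in 4 of the 34 genes, out of 1496 in all, and diaphragm 4 had 10 counts in 9 genes, out of 2115.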

How the results depend on the processing

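Between tissues, 9 genes were called with dural libraries summed per number and 11 without diaphragm 3/6/9, against 21 in the report, and 16 to 23 under every other alternative run. Of all genes, 1259 of 15001 were called with those sums and 2847 of 13758 without 3/6/9, against 3472 of 13136 in the report. The other alternatives called 2143 to 5457 of all genes. Leaving out 1 library at a time gave 18 to 22 calls between tissues, 13 to 16 for P6 against P4, 8 to 11 for P6 against P5 and 0 to 2 for P5 against P4. Over all genes it gave 2969 to 3585, 3717 to 4531, 1480 to 2503 and 544 to 1136 calls, in the same order. For P5 against P4 there were 4 calls with library totals, all lower in P5, 4 with DESeq2, 2 higher and 2 lower, and 5 with a replicate block, 2 higher and 3 lower. Over all 13239 genes tested these fits called 1042, 1448 and 1576, against 973 in the report. Whether the numbers pair the libraries could not be decided, since correlations of their deviations were low and overlapped. Libraries with the same number correlated at -0.005 to 0.171 over 9 pairs, and those with other numbers at -0.176 to 0.132 over 18 pairs. In 3 of 9 libraries, the best match under each other mark carried the same number. With the replicate block there were 18 calls for P6 against P4 and 13 for P6 against P5. Over all 13239 genes tested it called 5116 and 3070, against 4403 and 2299 in the report. A fit of edgeR without the legacy setting, chosen after seeing the data, gave 21, 17, 3 and 10 calls for tissue, P6 against P4, P5 against P4 and P6 against P5. Over all genes that fit gave 3891, 4745, 1356 and 2441 calls. Fewer libraries entered the fit with sums per number, and 15001 genes passed its filter, against 13136 in the report. The cause was not tested for any of these changes.

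No called gene changed sign under any alternative run. Uncalled genes did, as follows. Without diaphragm 3/6/9 the tissue log2 fold change was 0.71 for Slc2a3, -0.217 for Hk3, 0.221 for Gpi1, -0.006 for Pfkm, 0.572 for Aldoc and 0.049 for Egln1. That of Slc2a3 was 0.012 with limma-voom, 0.009 with a random term for the dural number and 0.061 with sets of columns as terms. Library totals gave 0.011 for Gpi1 and 0.097 for Egln1, upper-quartile factors 0.031 for Egln1, leaving out dura P6 0.002 for Egln1, and leaving out dura P4 -0.127 for Pfkm. Library totals put the median of all genes at -0.135 for P6 against P4 and gave -0.057 for Pdk3. They put it at -0.134 for P5 against P4 and gave -0.015 for Hk1, -0.118 for Hk3, -0.041 for Eno1, -0.097 for Ldha and -0.071 for Slc16a3.

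Leaving out single libraries, Pfkm ranged from -0.017 to 0.165 between tissues. For P6 against P4, Aldoc ranged from -0.506 to 0.138, Pfkfb3 from -0.331 to 0.082, Pdk3 from -0.11 to 0.23 and Hif1a from -0.149 to 0.014. For P5 against P4, Slc2a1 ranged from -0.069 to 0.442, Hk3 from -0.106 to 0.117, Pgam1 from -0.357 to 0.061, Ldha from -0.016 to 0.097, Slc16a3 from -0.161 to 0.431, Hif1a from -0.134 to 0.029, Egln1 from -0.086 to 0.029 and Vegfa from -0.947 to 0.189. For P6 against P5, Hk2 ranged from -0.083 to 0.018, Ldhb from -0.355 to 0.74, Pdk1 from -0.024 to 0.188, Hif1a from -0.049 to 0.044, Egln1 from -0.098 to 0.017 and Ndrg1 from -0.145 to 0.329. Of the 34 genes, depth limits most those of lowest level in dura, Egln3 and Adm.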
